A study of Mus musculus with 2 samples.

Results

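Retained-intron transcripts are RNAs of a gene that keep intron sequence the coding transcripts of that gene have spliced out. Described here are all transcripts that the GENCODE M21 annotation types as retained_intron and whose protein_coding parent gene had a relative abundance per length (TPM) of at least 5 in both libraries. Members were chosen by annotation and by this gene-level TPM, which is therefore no finding. There were 15101 of them among 141862 annotated transcripts, out of 21848 transcripts of that type in all, 21422 of which belong to protein_coding genes. The RNA came from inflammation-experienced regulatory T cells, primary CD4 T-lineage cells of male mice aged 7 weeks that, per the labels, had come from activated regulatory T cells. The labels give 1 biological replicate sequenced as 2 technical replicates, called library 1 and library 2, and no other condition, genotype or treatment. No comparison between conditions was possible, and an SD (n = 2 technical libraries) measures the spread between libraries of 1 biosample and not between animals.

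An intron is normally removed in the nucleus. A transcript that keeps one is often held in the nucleus until it is spliced or degraded, and if it reaches the cytoplasm a stop codon read inside the intron can send it to nonsense-mediated decay, the pathway that destroys RNAs with early stops. Genes for splicing factors, among them the SR proteins and the CLK kinases that phosphorylate them, are known for regulated introns of this kind, through which they adjust their own output. Intron retention has also been described in lymphocytes as they leave or re-enter the resting state.

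The libraries held 26593267 and 22036331 expected counts, of which the retained-intron transcripts took 2013815 and 1733471. The TPM of Foxp3, the defining regulatory T cell factor, was 87.3 and 87.4, and that of Cd3e, a subunit of the T cell receptor complex, was 1122 and 1046. Markers of other cell types were not equal between the libraries: Hbb-bs, an adult globin of red cells, had 2971 and 44.6, and Lyz2, a lysozyme of myeloid cells, had 23.8 and 3.72, while the macrophage complement gene C1qc went the other way, at 0 and 14.2. Cd8b1, of CD8 T cells, had 24.3 and 13.1. B cell markers were present in both, with Cd79a at 56.3 and 40.6. Neither Foxp3 nor Ctla4, an inhibitory receptor of these cells, has a retained-intron transcript here.

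The structures below show what such a transcript adds. They are the 6 retained introns of 60 to 200 bases within coding regions that were the only one in their transcript, among transcripts named for a high share of their gene or as leaders of a gene list. Each line runs 5′ to 3′ in the sense of the gene, with 9 exon bases at either end, and is copied from the annotated transcript (build GRCm38, mm10). Capitals mark the first and last 2 intron bases and, where one lies in the intron, the first stop codon in the reading frame of the coding transcript. Stops across or past the 3′ end of the intron were not searched and are not marked.
Hnrnpk-217: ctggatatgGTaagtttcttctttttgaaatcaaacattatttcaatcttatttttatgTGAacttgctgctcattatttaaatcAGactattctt
BC003965-202: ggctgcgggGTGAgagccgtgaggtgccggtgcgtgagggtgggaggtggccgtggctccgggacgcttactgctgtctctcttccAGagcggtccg
Mrps26-201: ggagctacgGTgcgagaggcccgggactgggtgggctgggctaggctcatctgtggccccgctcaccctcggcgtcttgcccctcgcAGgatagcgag
Cd83-202: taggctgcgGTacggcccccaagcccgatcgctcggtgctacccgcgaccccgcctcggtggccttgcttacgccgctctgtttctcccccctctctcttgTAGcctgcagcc
Irf3-207: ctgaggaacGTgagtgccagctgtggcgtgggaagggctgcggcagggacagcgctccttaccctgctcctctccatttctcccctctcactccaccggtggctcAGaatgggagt
Tap2-202: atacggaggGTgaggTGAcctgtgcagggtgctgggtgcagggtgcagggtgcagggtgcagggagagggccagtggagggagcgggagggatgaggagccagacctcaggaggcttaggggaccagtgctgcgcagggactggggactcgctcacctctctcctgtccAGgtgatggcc

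All 6 introns begin with GT and end with AG. The Hnrnpk intron (chr13:58393775-58393852, minus strand, intron 13 of 15 of the coding transcript Hnrnpk-224) has 78 bases and a GC content of 24.4%, against 65.3% to 72.5% in the other five. Its reading frame reaches TGA at codon 18, counted from the codon that holds the first intron base. In Tap2, a subunit of the transporter that loads peptides onto class I molecules, intron 6 of 11 (chr17:34212068-34212229, plus strand, 162 bases) reaches TGA at codon 3. The only intron of BC003965-201 (chr17:25184641-25184719, plus strand, 79 bases) reaches TGA at codon 2. Intron 1 of 4 of Cd83 (chr13:43785251-43785345, plus strand, 95 bases), a surface molecule of activated lymphocytes and dendritic cells, runs open to its last 3 bases, where TAG closes the frame at codon 32 and supplies the AG of the splice site. The introns of Irf3 (intron 5 of 7, chr7:45000547-45000644, plus strand, 98 bases) and of the mitochondrial ribosomal protein gene Mrps26 (intron 2 of 3, chr2:130564228-130564307, plus strand, 80 bases) hold no stop in frame. Their lengths leave a remainder of 2 when divided by 3, so the frame of the next exon shifts.

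Retained-intron transcripts were 26.4% of the annotated transcripts of the 8898 protein_coding genes that met the TPM threshold. They held 8.10% of those genes' expected counts in library 1 (95% Wilson interval 8.094 to 8.115) and 8.48% in library 2 (8.467 to 8.491), a mean of 8.29% ± 0.265 (SD, n = 2 technical libraries). The difference between the libraries exceeded counting error, the only error these intervals cover. Of TPM, which divides counts by effective length, they held 11.5% and 11.9%. Protein_coding transcripts of the same genes held 85.7% and 85.4% of the counts, nonsense_mediated_decay transcripts 3.56% and 3.51%, and processed_transcript entries, which lack an annotated reading frame, 2.62% and 2.61%. Retained-intron transcripts thus held more than either of the last 2 types in both libraries. They were also more numerous, as those 2 types were 8.33% and 15.2% of the annotated transcripts. Their median length was 830 bases, against 1803 for protein_coding transcripts.

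**Figure D1:**
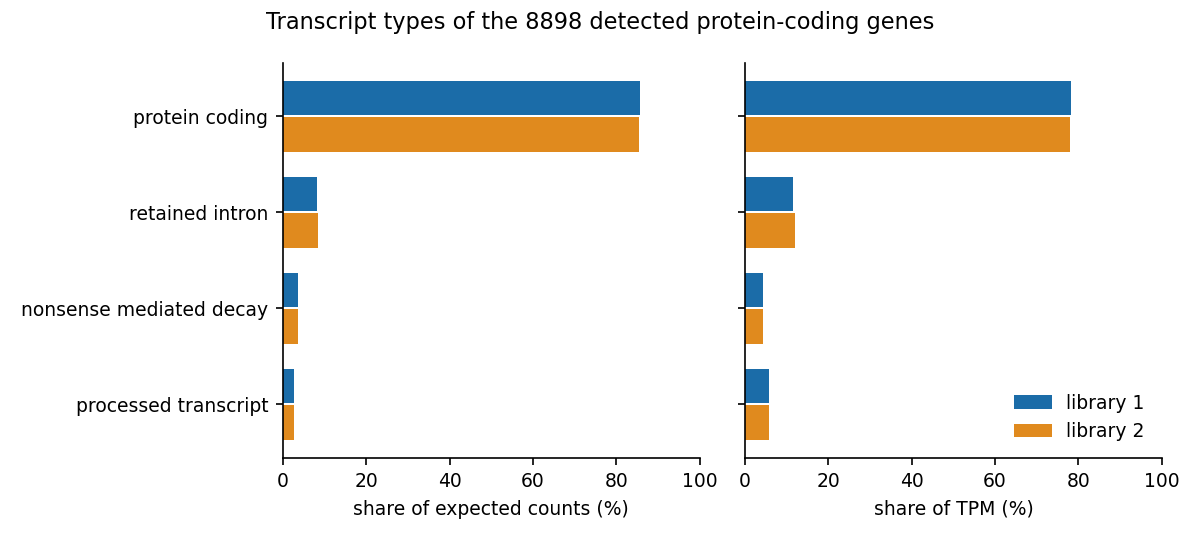
Share of expected counts (left) and of TPM (right), in percent, for 4 annotated transcript types of the 8898 detected protein-coding genes, with 1 bar for each library. Retained-intron transcripts took 8.10% and 8.48% of counts, above the nonsense-mediated decay transcripts and the processed transcripts in both libraries. These 3 types were 26.4%, 8.33% and 15.2% of the annotated transcripts of the genes.

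Most members were minor transcripts of their gene. IsoPct, the percent of a gene's TPM given to a transcript, had a median of 3.04% in library 1 and 3.75% in library 2. Expected counts were 0 for 3109 members in library 1 and 2500 in library 2, and for 1538 in both. At the other end, 579 members held 50% of all counts of the class. IsoPct reached 10% in both libraries for 2524 members (16.7%), 50% for 132 and 90% for 14. For the same threshold of 10%, the share was 20.04% among nonsense_mediated_decay transcripts, 14.1% among processed_transcript entries and 41.9% among protein_coding transcripts. At least 100 counts in each library were found for 2780 members, whose IsoPct differed between the libraries by a median of 2.11 percentage points around a median level of 12.6%.

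**Figure D2:**
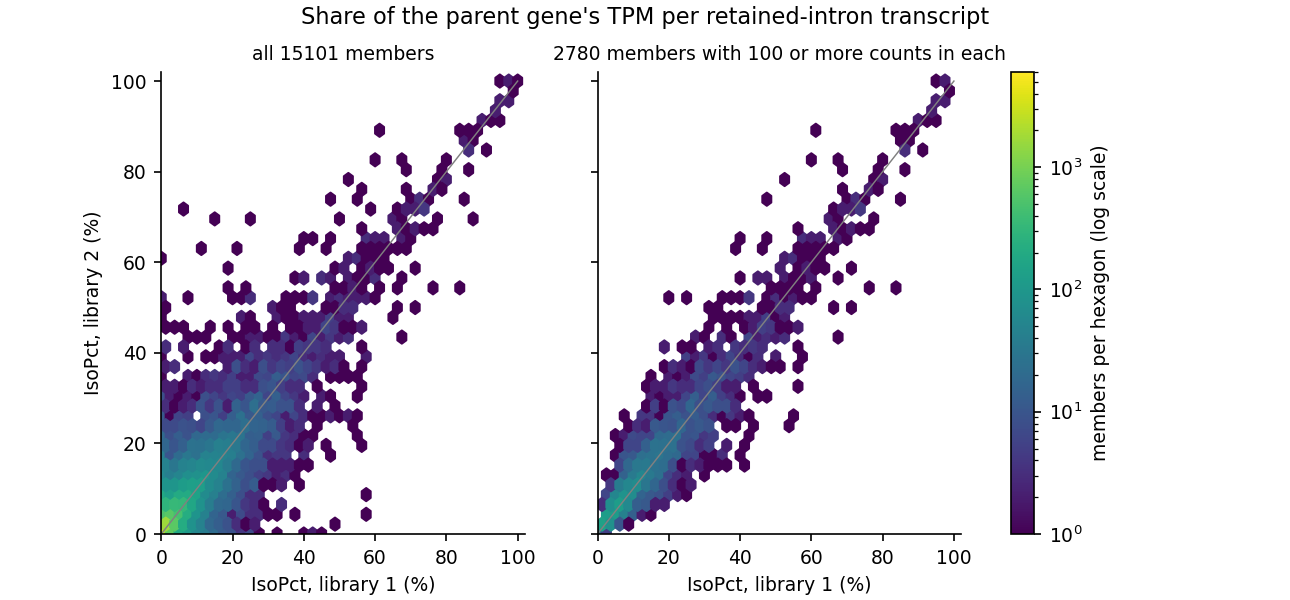
IsoPct in library 1 (x axis, percent) against library 2 (y axis, percent) for all 15101 members (left) and for the 2780 with 100 or more expected counts in each library (right). Hexagon colour gives the number of members on a log scale and the grey line marks equal values. In the right panel the members listed at 0 in 1 library are absent. The median absolute difference between the libraries was 1.82 percentage points on the left and 2.11 on the right.

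By gene, 5741 of the 8898 parents (64.5%) have at least 1 retained-intron transcript. Of these genes, 1981 have a single one, and the centrosomal gene Cspp1 has the most with 16. Summed over a gene, retained-intron transcripts held a median of 7.34% of its expected counts. They held 20% or more in 1335 genes (23.3%) and 50% or more in 300 genes (5.23%), on the mean of the libraries.

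The structure of the transcripts was only in part that of the class name. A whole intron of a coding transcript lay inside 1 exon of 4731 members (31.3%), and these held 47.8% of the class's counts in library 1 and 49.5% in library 2. Another 4906 ended inside an intron, 3760 started inside one, 1488 did both, and 216 did neither. The shares with IsoPct of at least 10% in both libraries were 18.4% for members with a whole intron, 17.1% for those that ended in an intron, 17.3% for those that started in one, and 8.13% for those that did both. Over all members a median of 347 bases lay outside the exons of coding transcripts, and 88 members had no such base.

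How well a read can be assigned to a member depends on sequence that is its own. Effective length was 49 bases under full length for all 134607 transcripts over 200 bases, so windows of 50 bases were counted. The median member had 274 windows found in no other transcript of its gene and in no other gene. There were 1649 members with no private window at all, which held 13.6% and 12.8% of the class's counts, and the values of these members rest on the quantifier's model alone. Exons of 2200 members (14.6%) overlapped another gene, and whether counting used strand is not given in the sources used here. Members named in the text with such an overlap include Tap2-202, Mrps26-201, Irf3-207, Rps13-206, Ddx39-203, Il2rg-204, Nrp1-203, Cdk4-207, Ccnd2-208, Hdac7-211, L3mbtl2-203 and Aars-205.

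Introns were called retained by annotation, in all members, including the 1538 at 0 counts in both libraries. The introns that were retained whole numbered 6265 in 2762 genes, overlapping alternatives counted separately. Their median length was 275 bases (95% interval of the median 262 to 286), against 1419 (1402 to 1436) for the 80011 introns not retained, which come from 5714 of the parent genes with members. Introns in members with IsoPct of at least 10% in both libraries had a median of 223 bases (203 to 252). These intervals treat introns as independent, although introns can share a gene or overlap, so they can be too narrow. Under 150 bases were 32.1% of retained introns and 9.74% of the others, while 17.5% and 59.8% exceeded 1000. In 2207 of the 2737 genes that had both kinds (80.6%), the retained introns had the shorter median. A retained intron has to fit inside an annotated exon, which is part of its definition.

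**Figure D3:**
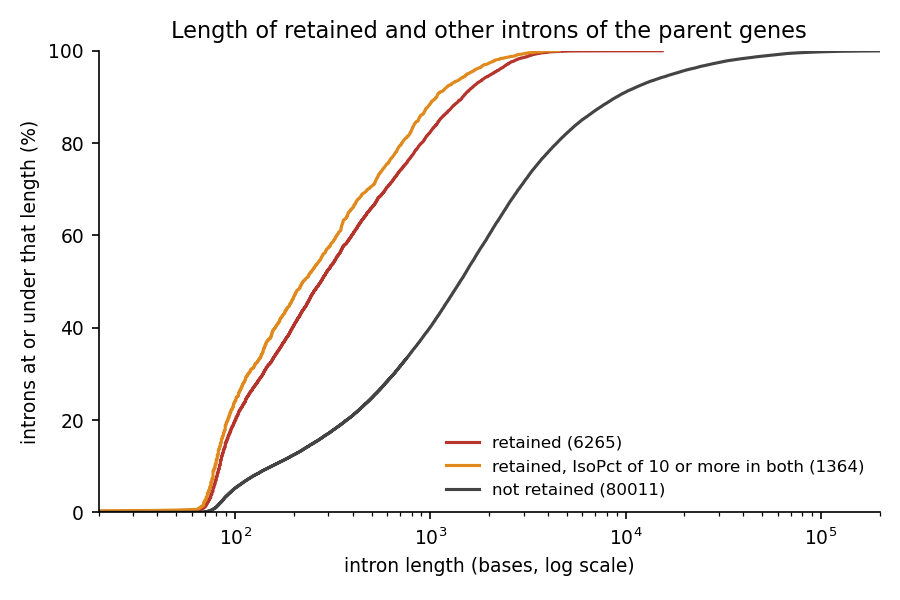
Cumulative share of introns (y axis, percent) at or under a given length (x axis, bases, log scale). Curves are for 6265 introns retained by annotation, the 1364 of them in members with IsoPct of at least 10% in both libraries, and 80011 introns not retained. The curves cross 50% at 275, 223 and 1419 bases.

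By place, 78.5% of retained introns were internal, 12.1% were first and 8.72% last introns of the coding transcript, and the corresponding values of the other introns were 75.8%, 13.8% and 9.82%. Retained introns interrupted the coding region in 91.4% of cases and the 5′ UTR in 7.50%, against 89.2% and 10.03% of the others. GT and AG bounded 6140 of the retained introns (98.0%), GC and AG 77, and AT and AC, the ends of some introns of the minor spliceosome, 10. Median GC content was 50.97% inside the introns and 53.5% in the flanking exon sequence. A usable reading frame was found for 5433 retained introns of at least 30 bases. In 4819 of them (88.7%) the first stop codon in frame lay wholly inside the intron, as in Tap2 and Hnrnpk above. Counted in triplets from the first intron base, unlike the codons above, this stop came at a median of 12. The other 614 had a median length of 93 bases, and in 167 (3.07% of the 5433) the length was divisible by 3. Introns whose first stop fell in the codon split across their 5′ end were counted among the 614. Translation could pass through the 167 only where that codon holds no stop. Codons across the 3′ end of the intron were not searched.

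SR proteins bind exonic enhancers and recruit the spliceosome. Of the 24 genes of this list past the TPM threshold, 21 have members. Retained-intron transcripts held 25.6% and 27.1% of the expected counts of the 24 genes (26.4% ± 1.09, SD, n = 2 technical libraries). IsoPct was at least 10% in both libraries for 16 of 68 members (23.5%, against 16.7% of all members). Srsf5-212, which keeps the 1229-base intron 5 of 7 of Srsf5-201, took 12527 of the gene's 20495 counts in library 1 and 10011 of 18268 in library 2. Its IsoPct was 48.1% and 43.0%, and no window was private to it. Srsf7-207, with the 874-base intron 3 of 7 of Srsf7-208, had 5700 and 4891 counts and an IsoPct of 36.3% and 37.2%, also with no private window. Srsf3-204, which keeps introns of 2150 and 393 bases, had 2518 and 2188 counts and an IsoPct of 8.33% and 9.29%. Srrm2-207, of a scaffold protein of nuclear speckles, started in an intron and had an IsoPct of 11.2% and 13.0%. The median IsoPct over the list was 2.88%, under the 3.69% of all members, so the list's high share of counts came from few transcripts.

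The kinases that phosphorylate SR proteins (CLK, DYRK and SRPK) and the O-GlcNAc enzymes held 28.8% and 26.7% of expected counts (27.7% ± 1.47, SD, n = 2 technical libraries). This was the highest mean of the 13 lists, above the SR list in library 1 and under it in library 2. Of 42 members, 12 reached the IsoPct threshold (28.6%). Clk1-204 keeps introns 3, 4 and 6 of the 12 of Clk1-201, of 871, 387 and 87 bases, and had 3379 and 2464 counts with an IsoPct of 21.97% and 21.93%. Clk4-213 had 1402 and 1238 counts and an IsoPct of 14.8% and 14.6%. For either kinase the IsoPct was nearly equal in the libraries. Srpk1-212 had 3324 and 2121 counts, an IsoPct of 20.6% and 19.1%, and no private window. Ogt-204, of the enzyme that adds O-GlcNAc to nuclear proteins, was the most abundant transcript of its gene in TPM, with 3432 and 3054 counts and an IsoPct of 36.6% and 37.3%. Of its 3087 bases, 2378 lay outside coding exons, and 1396 of its windows were private.

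Core spliceosome genes had a share of 12.7% and 14.3% over 47 genes, 40 of them with members, and 15 of 128 members (11.7%) met the IsoPct threshold. Sf3b1-203, of the branch site factor, keeps the 1813-base intron 4 of 24 and had 7329 and 6780 counts with an IsoPct of 28.8% and 32.5%. Snrnp48-204, of a protein of the minor spliceosome, keeps a 3192-base intron and held 43.9% and 52.1% of its gene's counts. With a length of 6689 bases, its IsoPct was lower, at 13.6% and 17.2%. Snrnp70-216, of the U1 snRNP, had 2545 and 2094 counts and an IsoPct of 22.98% and 24.89%. Prpf39-205 was the most abundant transcript of its gene, at an IsoPct of 40.7% and 37.4%. RNA helicases and RBM proteins had a share of 14.2% and 14.6%, with 16 of 100 members (16.0%) past the threshold. By counts the list was led by Rbm39-205 (IsoPct 26.97% and 28.98%) and Rbm5-219 (11.4% and 9.70%, so under the threshold in library 2). Rbm25-206 had 8.65% and 9.92%. Ddx39-203 stood at 27.6% and 36.9%, the widest gap of the 4 named in that list. The hnRNP and FET proteins stood lower, at 7.06% and 7.98% of counts and 9 of 72 members (12.5%). Hnrnpa2b1-211 had 3526 and 2961 counts there, and Hnrnpk-217, shown above, had 3434 and 2985 with an IsoPct of 16.3% and 16.4%. It had no private window, and 87.6% of the windows of the gene's leading coding transcript occur in other genes. Hnrnpk-215 had an IsoPct of 17.04% and 17.55%, the highest of its gene, and Hnrnpa2b1-208 had 12.3% and 14.6%. The spliceosomal lists therefore did not share one level: SR and kinase genes were above the 8.29% of all parents, and hnRNP genes under it.

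**Figure D4:**
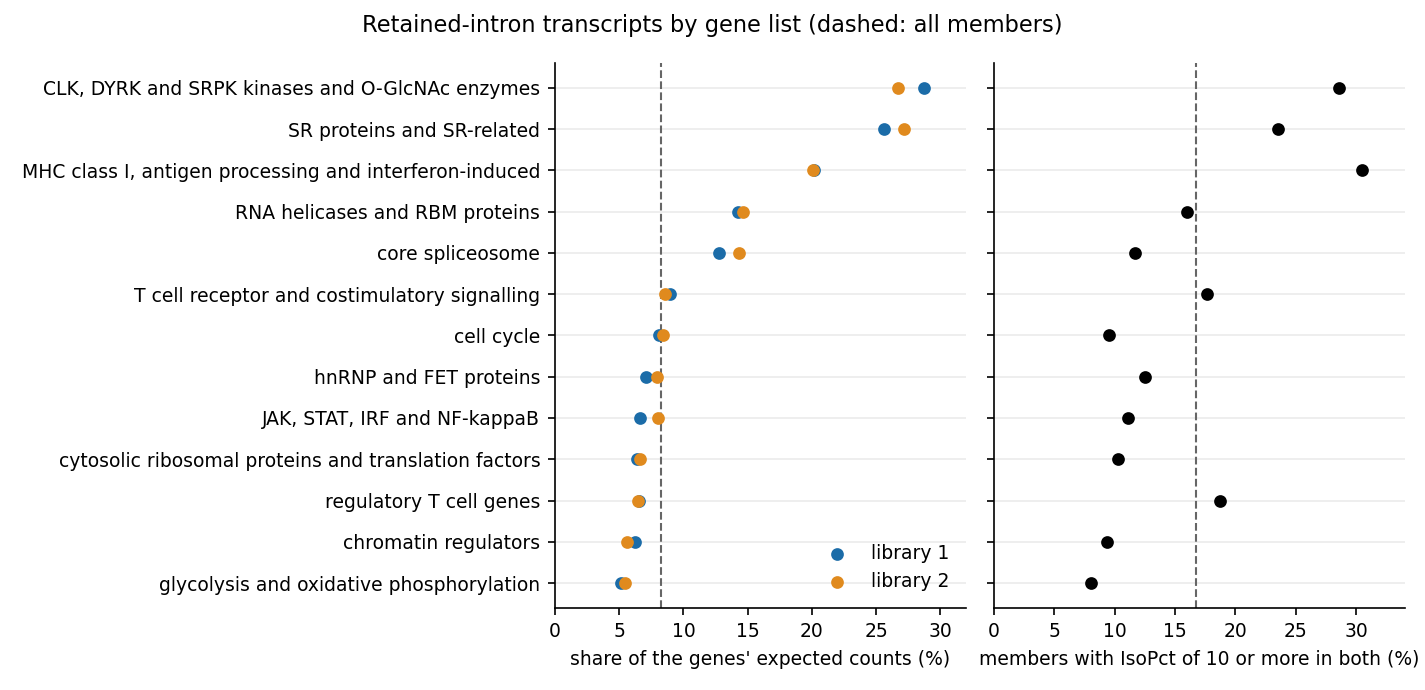
Retained-intron transcripts by gene list: share of the genes' expected counts per library (left, percent) and percent of members with IsoPct of at least 10% in both libraries (right). Dashed lines give the values over all members, 8.29% and 16.7%; the kinase, SR and MHC lists lie farthest right of the line in both panels, and the T cell receptor list lies just right of it.

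Among genes of regulatory T cells, the list's 32 members in 18 genes held 6.51% and 6.49% of the counts of its 34 genes past the TPM threshold. Of these members, 6 (18.8%) met the IsoPct threshold. The largest was Ikzf2-205, of Helios, a zinc finger factor of this lineage. It ends inside an intron, with 1651 of its 1905 bases outside coding exons, and had 4684 and 3413 counts. Its IsoPct of 70.96% and 73.34% made it the most abundant annotated transcript of Ikzf2 in both libraries. Coding transcript Ikzf2-201 had 14.6% and 13.5%, and only 46 windows were private to Ikzf2-205. Nrp1-203, of a surface receptor that marks many regulatory T cells, had an IsoPct of 20% and 18.5%. Lef1-206, of a factor of resting T cells, had 17.0% and 17.9%. Il2rg-204, of the shared cytokine receptor chain, keeps introns 2 and 3 of 7 of Il2rg-201 and had 7.06% and 8.22%.

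T cell receptor and costimulatory genes had a share of 8.99% and 8.54%, and 15 of 85 members (17.6%) met the threshold, while none was the most abundant transcript of its gene. Ptprc-208, of the phosphatase CD45, is a single exon of 3213 bases of which 3101 lie in introns, and had 8616 and 6393 counts with an IsoPct of 16.8% and 15.3%. A second Ptprc member, Ptprc-201, had 5.33% and 4.77%. Cd6-206, of a coreceptor that dampens signalling, had 3584 and 3055 counts, and 4562 of its windows were private. Its IsoPct was 9.65% and 9.25%, and that of Cd6-201 was 20.03% and 19.85%. In the JAK, STAT, IRF and NF-kappaB list the share was 6.58% and 8.05%, with 9 of 81 members (11.1%) past the threshold. Irf3-207, with the 98-base intron shown above, had 1466 and 1152 counts and an IsoPct of 33.7% and 28.0%. Irf7-210, of the interferon-induced regulator, had 849 and 1552 counts and 42.9% and 48.3%, while the TPM of the whole gene was 63.7 and 126. Both were the most abundant transcript of their gene, and neither had a private window. Ikbkb-211, of a kinase that activates NF-kappaB, had 7.94% and 8.76%. Nfkbia-202, of the inhibitor that holds NF-kappaB in the cytoplasm, stood at 53.25% and 48.99%, close to Nfkbia-201, its coding transcript, at 46.75% and 51.01%.

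Genes of class I antigen presentation followed the kinase and SR lists, at 20.1% and 20.1% of counts (SD 0.0537, n = 2 technical libraries), and 14 of 46 members (30.4%) met the threshold. Tap2-202, with the 162-base intron 6, took 10209 of 11064 counts in library 1 and 8499 of 9390 in library 2. Its IsoPct was 93.5% and 92.6%, against 5.72% and 7.16% for the coding transcript Tap2-201, and 190 of its windows were private. H2-Q7-206 had the highest counts of all members in this list, 31245 and 26910, with an IsoPct of 28.0% and 27.3%. H2-K1-215 had the highest TPM of the whole class, 2579 and 2619, and an IsoPct of 27.0% and 26.4%. It starts in an intron with 20 bases outside coding exons, and 8 windows were private. H2-K1-213 had a TPM of 1162 and 1262 and no private window, and H2-K1-214 had 610 and 665. Of the windows of the leading coding transcript, 40.2% also occur in other genes for H2-Q7 and 9.07% for H2-K1, and the division of those reads is uncertain.

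Ribosomal protein and translation factor genes held 6.37% and 6.64% of their counts in members, and 28 of 272 members (10.3%) met the threshold, yet 11 were the most abundant transcript of their gene. Rps26-202 had 4345 and 2806 counts and an IsoPct of 98.3% and 97.9%. Rps16-203 had 5091 and 3622 counts and 95.5% and 94.8%, and Rps19-206 had 11906 and 9443 counts and 47.8% and 46.2%. Rpl15-206 had 3723 and 2531 counts and 89.9% and 90.3%. All 4 start inside an intron and have 68 to 187 bases outside coding exons. In the median gene of this list, 49.2% of the windows of its leading coding transcript also occur in other genes, against 0% over all members. The part of that overlap in these IsoPct values was not tested.

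Cell cycle genes were close to all parents, at 8.08% and 8.43%. The lowest shares of the 13 lists, on the mean of the libraries, were those of chromatin regulators (6.23% and 5.58%) and of glycolysis and oxidative phosphorylation (5.13% and 5.47%). Cdk4-207, of the G1 kinase, keeps a 688-base intron and had 963 and 913 counts with an IsoPct of 11.6% and 16.0%. Ccnd3-216, Ccnd3-203 and Ccnd2-208, of the D cyclins, had 8.93% and 5.97%, 18.2% and 15.3%, and 1.45% and 1.36%. Chd3-205, of a nucleosome remodeler, was the most abundant transcript of its gene at 22.2% and 28.8%. Brd8-207 had 22.7% and 17.3%, and Hdac7-211, of a histone deacetylase, 23.7% and 21.4%. Smarcc1-208, of a SWI/SNF subunit, had 687 and 96.1 counts, with the widest gap of the 4 named in that list, an IsoPct of 32.7% and 6.14%. Cox4i1-203, Cyc1-204 and Ndufb10-205, of respiratory chain subunits, had 39.96% and 35.8%, 17.8% and 22.9%, and 42.8% and 42.3%, and Ndufb10-205 had no private window. Atp5a1-203, of ATP synthase, had 9.94% and 5.87%.

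Within the lists, the genes with the highest summed share were ranked among those with at least 1000 counts in each library, a rule added after the values had been seen. Srsf5 gave 67.4% of its counts to members in both libraries, Clk3 61.1% and 51.7%, and Snrnp48 66.9% and 69.4%. Psmb10 and Psmb8, catalytic subunits of the immunoproteasome, gave 62.9% and 64.6%, and 58.5% and 58.3%. The level was similar in both libraries for most genes plotted, with the wider gaps in Sos1 (22.2% and 36.2%), Ddx39 (33.2% and 44.5%) and Irf7 (61.3% and 71.8%).

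**Figure D5:**
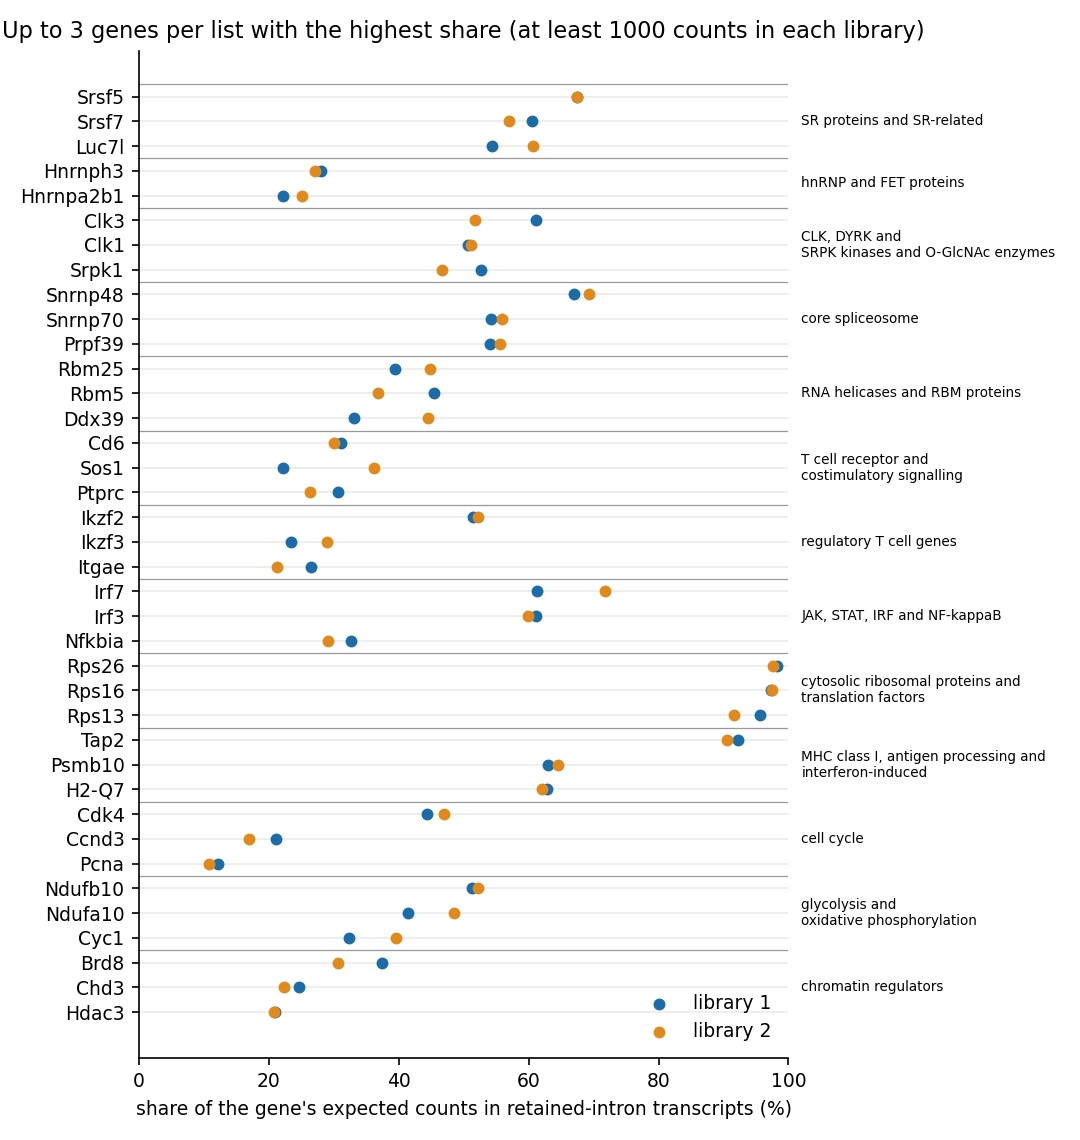
Share of a gene's expected counts held by its retained-intron transcripts (x axis, percent) in library 1 and library 2, for up to 3 genes with the highest mean share in each of 13 lists, among genes with at least 1000 counts in each library (1 gene is not shown). Rps26, Rps16, Rps13 and Tap2 lie above 90% in both libraries, while no cell cycle gene passes 50%.

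A member was the most abundant transcript of its gene, by TPM, in both libraries for 317 genes (2.10% of members). Ranked by expected counts, which are not divided by length, 235 members were. By TPM, 5.50% of nonsense_mediated_decay, 2.73% of processed_transcript and 24.1% of protein_coding transcripts were the most abundant in both libraries. Of these 317 members, 109 contained a whole intron, and the median number of bases outside coding exons was 206, against 347 over all members. Fewer than 50 windows were private in 88 of them (27.8%, against 17.8% of all members). In 30 (9.46%), at least 50% of the windows of the leading coding transcript occur in other genes, against 4.96% of all parent genes with members. Among the members with at least 100 counts in each library, the highest mean IsoPct was that of H2-Q10-203, at 97.6% and 100% with 1284 and 1169 counts. Rps26-202, given above, and Mrps26-201 (97.5% and 98.6%) followed, then came BC003965-202 at 93.8% and 100% and Cd83-202 at 97.4% and 96.2%, although the TPM of Cd83 as a whole was 80.8 and 38.1. Mrpl57-202, Cdh23-208 and Chic2-202 were also above 90% in both libraries, as were the ribosomal protein transcripts Rps23-202 (93.9% and 94.0%) and Rps13-206 (93.8% and 90.6%). Of its gene's expected counts, Chic2-202, of 521 bases, held 37.1% and 35.3%, Mrpl57-202 83.0% and 81.2%, and Cdh23-208 87.5% and 92.2%. Rps13-206 had no private window. Mrps26-201, BC003965-202 and Cd83-202, whose introns are shown above, had 79 to 95 bases outside coding exons, and 127 to 143 private windows.

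By TPM, the leading members after H2-K1-215 and Rps19-206 were Ms4a4b-207 (1402 and 1497) and H2-K1-213. Ms4a4b, a membrane protein of T cells, had 2 members with high IsoPct, Ms4a4b-207 at 57.8% and 57.9% and Ms4a4b-206 at 34.3% and 34.5%, and its coding transcript Ms4a4b-201 had 4.01% and 3.93%. Itm2b-202 had a TPM of 687 and 693, Rps7-205 of 577 and 523, and Fxyd5-214 of 516 and 567. The level of Hba-a1-202, of an alpha globin, was 1785 in library 1 and 10.95 in library 2, in the same direction as Hbb-bs above. Its IsoPct was 99.85% and 100%, and it had no private window.

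Small RNA genes lay inside 139 members, 75 of them with a microRNA gene and 60 with a snoRNA gene. Their median IsoPct was 3.44%, near the 3.69% of all members, and 21 met the threshold of 10%. Nrp1-203 holds Mir1903. Hspa8-208, of a chaperone, holds Snord14c, Snord14d and Snord14e and had 840 and 1477 counts, the highest sum over both libraries among members with a snoRNA gene. These 2 were picked out after their values were seen.

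Between the libraries, retained-intron transcripts passed a 2-fold difference more often than all transcripts of the parent genes at a low count minimum. At a high minimum few members passed, at a lower rate than all transcripts, although their median difference was larger. The measure was the ratio of a transcript's share of its gene's counts in library 2 to that in library 1, after adding 0.5 counts, over transcripts with at least 30 counts summed. Of 9498 members tested, 1899 (19.99%) had a share at least 2-fold higher in library 2 and 1268 (13.4%) at least 2-fold higher in library 1. The background over all 33882 transcripts of the parent genes tested was 14.8% higher in library 2, 13.0% higher in library 1 and 27.8% in either direction, where the members had 33.3%. By type, 23.3% of protein_coding, 31.9% of processed_transcript and 35% of nonsense_mediated_decay transcripts passed in either direction. The median log2 ratio was 0.10 for members, and -0.0014 for protein_coding transcripts. With at least 1000 counts summed, 11 of 662 members (1.66%) and 2.33% of all transcripts passed. The median absolute log2 ratio at that minimum was 0.172 for members and 0.0925 for all transcripts. These are ratios between 2 libraries of 1 biosample, with no test.

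The largest ratios were all in members listed at 0 counts in 1 library. Higher in library 2 were Tbc1d5-203 (0 and 249 counts), L3mbtl2-203 (0 and 178), Hnrnpdl-206 (0 and 178), Pstpip1-207 (0 and 193), Slc12a2-202 (0 and 114) and Aars-205 (0 and 137). Higher in library 1 were Jmjd1c-208 (327 and 0), Zdhhc18-202 (276 and 0), Slc25a39-213 (314 and 0), Krba1-210 (193 and 0), Usp42-205 (260 and 0) and Trmt2a-201 (176 and 0). A listed 0 here is an estimate. The deposited posterior mean count was 41.2 in library 1 for Pstpip1-207 and 47.0 in library 2 for Trmt2a-201, for which the within-gene share differed 4.70-fold and 4.09-fold on posterior means. For Tbc1d5-203 it was 2.23 and 247, a 128-fold difference, and for Krba1-210 187 and 1.12. No private window was held by Jmjd1c-208, Usp42-205, Hnrnpdl-206 or Pstpip1-207, whereas Tbc1d5-203 had 1129. In Nfkb1, which was singled out after its values were seen, the members together held 12.3% of counts in library 1 and 39.2% in library 2, and Nfkb1-204, with 1825 private windows, had 132 and 389 counts.

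At the TPM threshold, the nearest members inside were Sipa1l3-203, Sipa1l3-205 and Sipa1l3-208, whose gene had a TPM of 5 and 11.9. Their counts were 0 and 0, 0 and 16.3, and 6.38 and 3.80. The nearest outside were Cul9-202, Cul9-203 and Cul9-205, with a gene TPM of 8.52 and 4.99 and counts of 55.3 and 79.0, 0 and 0, and 10.3 and 0.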

How the data were processed

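The authors derived expected counts, TPM, IsoPct and posterior estimates per gene and transcript from transcriptome alignments (mm10, GENCODE M21), per the deposited description. The aligner was, like the quantifier, not given in the sources used here. Expected counts are the authors' estimates and were not rounded, because no count model was fitted. TPM values were scaled by the authors with effective length, per the file headers. The percent values (IsoPct) are the authors' share of the gene's TPM per transcript, per the file headers. Posterior SDs and interval bounds of TPM were deposited too. Transcript types, structures and sequences came from GENCODE M21.

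Computed here, with Python 3.11.15, pandas 2.3.3, numpy 2.4.6 and scipy 1.17.1, were shares, Wilson intervals, intron overlaps, 50-base windows and ratios between libraries. TMM factors came from edgeR 4.0.16. By counting error alone, a listed 0 allows up to 3 counts (CPM 0.113 and 0.136). The division of shared reads is not covered, as the posterior mean of 47.0 for Trmt2a-201 in library 2 shows. Intervals and floors cover counting error only, since PCR copies are not independent molecules. Scripts were tested on simulated data. Named were the 12 members with the highest mean IsoPct at 100 or more counts in each library, the 12 with the highest TPM, up to 4 per list by counts (13 lists, 572 genes), 6 per direction by ratio, and 3 at either side of the TPM threshold. Alternatives were other thresholds, units, filters and each library alone. Small gene tables were not used. Of the genes these rules took, 2 are not reported here. The members and lists were chosen with earlier results of these data known.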

Additional observations from a re-analysis of the deposited data

How the results depend on the processing

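No paired analysis was possible because there is 1 group. The share of counts was 8.29%. It moved beyond the SD to 11.7% in TPM, to 6.65% without members whose exons overlap another gene, to 4.03% with members that contain a whole intron, and, an alternative added after seeing the data, to 6.54% with members of at least 50 private windows. With each library alone it was 8.10% and 8.48%, and with gene TPM of at least 1, 10 or 50 and with posterior means it stayed within the SD. Against 2524 members with IsoPct of at least 10%, 4632 passed 5%, 973 passed 20%, and 1029 passed 10% at a gene TPM of at least 50. Library 1 alone gave 3293 and library 2 alone 3698. Against 317 most abundant members, 235 were found by expected counts, 160 at a gene TPM of at least 50, and each library alone gave 471 and 520. The median length of 275 bases became 289 with introns of any other transcript of the gene and 223 in members with IsoPct of at least 10%.

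Against 3167 members at a 2-fold ratio (1899 higher in library 2, 1268 in library 1), a 1.5-fold limit gave 4987 (2889 and 2098) and a 4-fold limit 1327 (838 and 489). A minimum of 10 summed counts gave 4857 (2956 and 1901), of 100 counts 1242 (732 and 510), and no minimum 6333 (3908 and 2425). Other added counts, CPM, TMM factors, posterior means and the private-window limit kept the total between 2717 and 3298. This comparison needs both libraries, so none could be left out. Of 81 named members, IsoPct from posterior means differed from the reported value by less than the SD in 71, by a median of 0.17 points over all, and by at most 4.23 (Cdh23-208). Depth limits the rarer members: 8537 of 15101 had at least 10 counts in each library.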

Other observations

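Outside protein_coding genes, 426 transcripts are typed retained_intron, and 134 of them belong to 59 genes past the same TPM threshold. IsoPct was at least 10% in both libraries for 47 of the 134 (35.1%), and the median was 7.18%. Most of these, 115, have a parent of the type processed_transcript. H2-Q5-203, of a class I gene annotated as a polymorphic pseudogene, had the highest counts, 2264 and 2024, at an IsoPct of 33.5% and 26.3%. The transcripts of Gas5, a noncoding host gene of snoRNAs, stood lower, with Gas5-218 at 3.25% and 4.99%. Mirt1-206, of a lincRNA, had 88.1% and 74.7%. These transcripts were named after their values were seen.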
